A study of Mus musculus with 11 samples.

Results

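The genes described here are ligands, receptors and 1 inhibitor of the tumour necrosis factor (TNF) system, read on arrays of sorted mouse liver cells. The rule took every row of the deposited table whose platform gene symbol was on a list of 10 names. Of these, 9 had a row among 23185 named genes: the ligands Tnf, Lta and Ltb, the receptors Tnfrsf12a, Tnfrsf1a, Tnfrsf1b, Ltbr and Fas, and the inhibitor Tnfaip3. Tnfsf12, which encodes the ligand TWEAK, is not analysed here.

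TNF is a membrane protein that can be shed as a soluble trimer. It signals through TNFR1 (Tnfrsf1a), a death-domain receptor found on most cells, and TNFR2 (Tnfrsf1b), which lacks a death domain and is most typical of leukocytes and endothelium. Lymphotoxin beta (Ltb) anchors lymphotoxin alpha (Lta) at the cell surface, where the complex binds the lymphotoxin beta receptor (Ltbr). TWEAK binds Fn14, the product of Tnfrsf12a, and this pair is known as a mitogenic signal for liver progenitor cells in ductular reactions. Fas is the death receptor for Fas ligand, best known in the liver on hepatocytes. Many of these receptors feed the transcription factor NF-kB, and A20, the product of Tnfaip3, is an NF-kB-induced enzyme that limits the same pathway.

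The cells carried a yellow fluorescent protein (YFP) label that the study used to trace the biliary epithelium. YFP+ cells came from untreated mice (UTR, 2 arrays), from mice on the CDE diet (3 arrays), a choline-deficient, ethionine-supplemented model of hepatocyte injury, and from mice on the DDC diet for 5 weeks (3 arrays), a model of cholestatic injury. YFP- cells came from untreated mice (3 arrays). All were sorted from the non-parenchymal pellet of collagenase-digested livers after dead cells were gated out, and wild type mice set the gate. The driver of the label, the strain, the age and the sex of the mice, and the length of the CDE diet, were not stated in the sources used here. For DDC the labels name 4 mice against 3 arrays and do not say how mice map to arrays. The p-values below set group differences only against the variation among arrays within groups. Part of that variation may be technical, so the p-values may not carry over to mice.

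Expression is given as the log2 value that the authors deposited, on Affymetrix MoGene 2.0 ST arrays. Base 2 is an inference from the range of the values, and every fold below rests on it. Because no array holds a negative control in the deposited table, the 95th percentile of 1082 olfactory receptor genes, which are silent in most tissues, served as a background mark on each array (5.17 to 5.55). The YFP+ arrays carried the biliary markers on every array (list means of 10.24 to 10.63). In YFP- cells the mean of that list was 8.13 on replicate 1 and 5.27 and 4.89 on replicates 2 and 3, so replicate 1 also held bile duct transcripts. The hepatocyte genes Ttr (12.47 to 13.15) and Alb (11.70 to 12.58) were high on every YFP+ array. Apoa1 (6.34 to 8.81), Cyp2e1 (5.10 to 6.09) and Cps1 (4.52 to 5.13) read lower there. In untreated YFP+ against YFP- cells Ttr was higher (1.52 ± 0.13, adjusted p = 0.000128, limma) and Cyp2e1 was lower (adjusted p = 0.0453). Sinusoidal endothelial markers were high on all 3 YFP- arrays and highest on replicate 1 (list means 6.60, 5.02 and 5.56 above the mean of the YFP+ arrays on replicates 1, 2 and 3). The stellate cell list mean was also highest on replicate 1 (7.33, against 5.62 and 6.07), though its member Lrat was highest on replicate 3 (5.94). Replicate 2 was the richest in lymphocyte markers (T and NK cell list 10.23, against 4.5 and 4.86, and B cell list 10.25, against 4.72 and 5.77). The B cell marker Cd79b was also high on replicate 3 (9.20, against 11.24 on replicate 2 and 6.20 on replicate 1). Neutrophil and monocyte markers were highest on replicate 2 too (10.92, against 7.67 and 7.22). Replicate 3 was richest in macrophage and Kupffer cell markers (11.41, against 8.84 and 8.86). In bulk sorted samples fewer cells of a type and less RNA per cell cannot be told apart.

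The NF-kB consensus was searched on both strands of the 300-base RefSeq promoter windows (250 bases before to 50 after each start, build GRCm38.p6). It was taken in the loose form GGGRNNYYCC, with R for A or G, Y for C or T and N for any base. The search was made because Tnf and Tnfaip3 are textbook NF-kB targets. In addition, 5 of the 9 genes lay higher on all DDC arrays than on any CDE array, as did 9.64% of all genes. All 9 genes had a window, and 2 of them, Ltb and Tnfaip3, held a match, against 9.55% of all 27025 genes with a window. Of 19 listed NF-kB targets and inhibitors with a window, 14 held one. These genes were listed because they are known from this pathway, so their share is a description and not support. The stretches of 30 bases around the matches are shown 5′ to 3′ on the gene's strand, with the matching bases in capitals.
Ltb, chr17:35194410-35194439, plus strand: aagggtgttcGGAAAGTCCCcgggcagggg
Tnfaip3, chr10:19015516-19015545, minus strand: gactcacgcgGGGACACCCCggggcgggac
Tnfaip3, chr10:19015403-19015432, minus strand: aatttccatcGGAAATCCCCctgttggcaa
The match of Ltb begins 87 bases before the start, and those of Tnfaip3 begin 125 and 12 bases before it. The first Tnfaip3 match reads as the consensus on both strands, and the other 2 matches lie on the strand opposite the gene. A match describes the letters only, and its absence in the other windows says nothing about the factor.

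**Figure D1:**
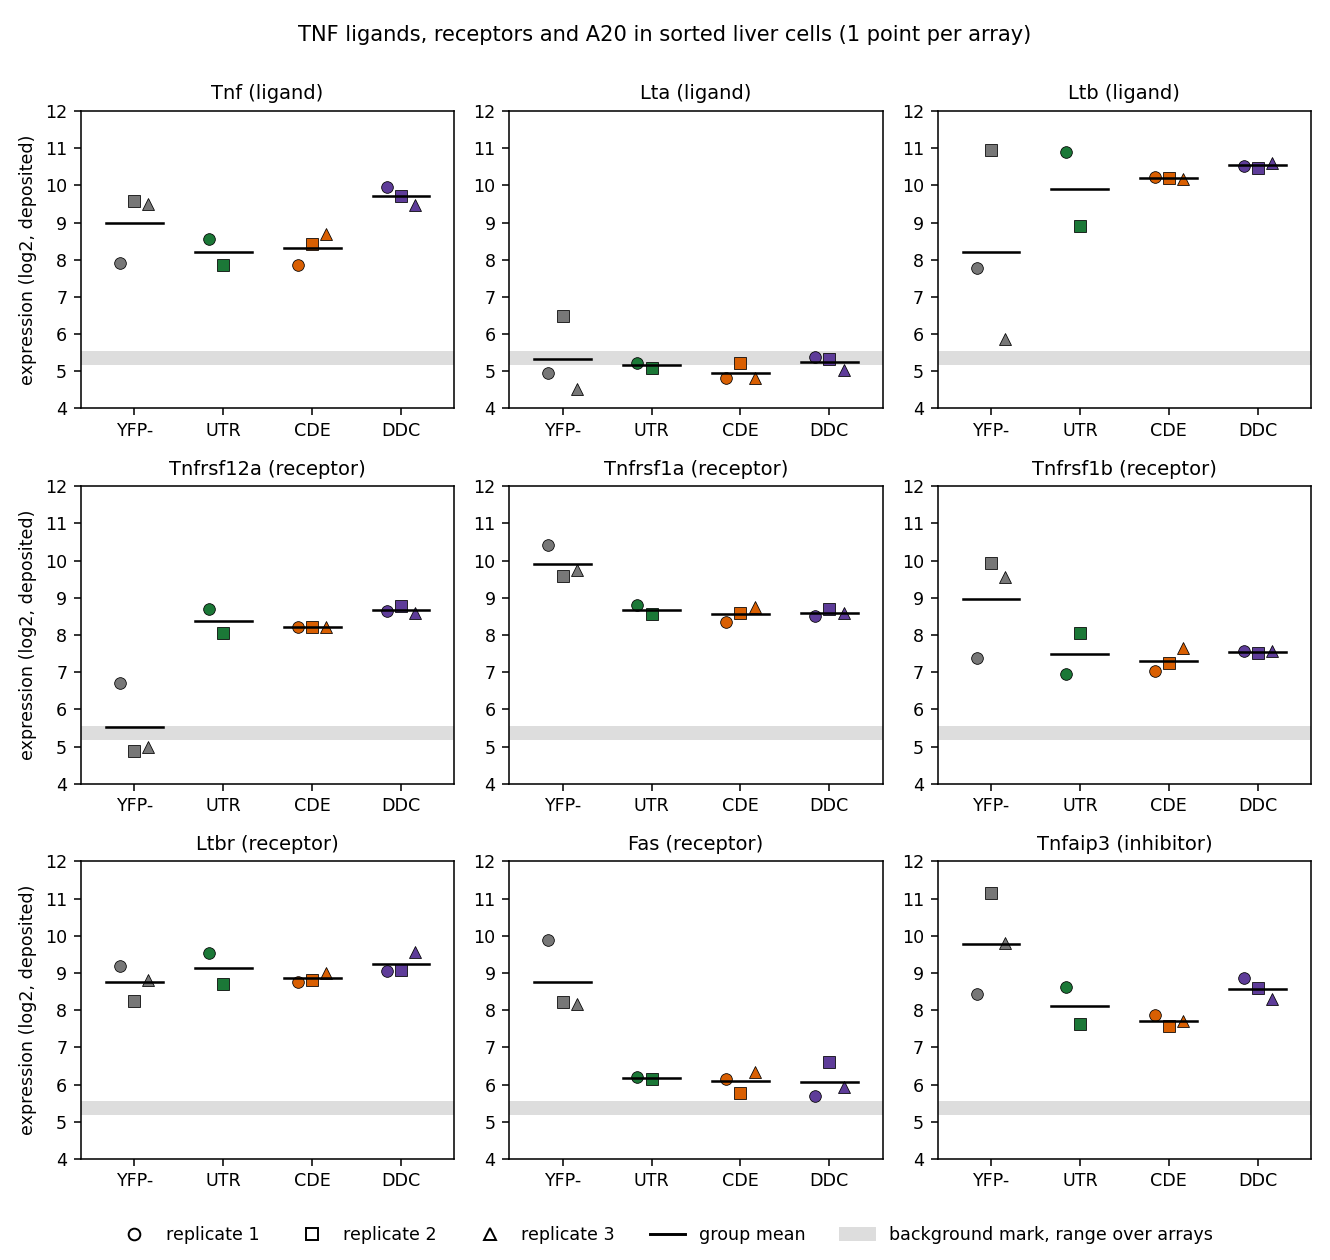
Deposited log2 expression (vertical axis) of the 9 genes in YFP-, UTR, CDE and DDC cells (horizontal axis), with 1 point per array, lines at group means and a grey band over the background marks of the arrays. Tnf on DDC (9.48 to 9.95) lies above every other YFP+ array, Tnfrsf12a is lowest in YFP- cells and Fas is highest in YFP- cells.

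Among the ligands, Tnf read 8.57 and 7.86 on the UTR arrays, 7.87, 8.42 and 8.68 on CDE, 9.95, 9.72 and 9.48 on DDC, and 7.91, 9.59 and 9.51 on the YFP- arrays. The DDC arrays stood above all UTR and CDE arrays, while YFP- cells spanned almost the whole range. Ltb read 10.89 and 8.91 on UTR, 10.22, 10.20 and 10.18 on CDE, 10.53, 10.48 and 10.61 on DDC, and 7.78, 10.95 and 5.88 on YFP-. The gene is known mainly from lymphocytes. Its highest YFP- value was on replicate 2, the array richest in lymphocyte markers and in neutrophil and monocyte markers. In YFP+ cells it was far above the background mark on all 8 arrays. The T and NK cell list had a mean of 4.45 to 4.62 there. Of its 7 members 6 were under the mark on every array of each YFP+ group, and all 3 measured B cell markers likewise. The other T and NK cell marker, Nkg7 (5.33 to 5.87), was above the mark on 2 CDE, 2 DDC and 2 UTR arrays. The source of Ltb in YFP+ cells was not tested. Lta was above its array's mark on only 2 of 11 arrays, DDC replicate 2 (5.33) and YFP- replicate 2 (6.50). It counts as not above background in UTR and CDE cells, and no fold is given for it. Its plotted differences compare values that are mostly under the mark and carry no size.

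Of the receptors, Tnfrsf12a read 8.70 and 8.05 on UTR, 8.21 on each of the 3 CDE arrays, 8.65, 8.79 and 8.60 on DDC, and 6.72, 4.87 and 4.99 on YFP-. Every YFP+ array was above every YFP- array, and the only YFP- value above the mark was on replicate 1, the array with bile duct transcripts. Fas showed the opposite order: 6.19 and 6.14 on UTR, 6.16, 5.78 and 6.34 on CDE, 5.70, 6.60 and 5.93 on DDC, and 9.89, 8.22 and 8.16 on YFP-. The 3 YFP+ groups overlapped one another throughout, close to the background mark but above it on every array.

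Tnfrsf1a lay between 8.34 and 8.80 on all 8 YFP+ arrays and at 10.42, 9.58 and 9.76 on YFP-. Its YFP+ range is narrow and the groups within it overlapped. Tnfrsf1b read 6.95 and 8.05 on UTR, 7.02, 7.24 and 7.66 on CDE, 7.57, 7.51 and 7.57 on DDC, and 7.37, 9.93 and 9.57 on YFP-. YFP- replicate 1, which had the lowest level of the pan-leukocyte gene Ptprc in that group (8.75, against 11.34 and 10.75), was within the YFP+ range for Tnfrsf1b. The same array held bile duct transcripts and had the highest endothelial and stellate cell list means, and the part of each was not tested. Ltbr was even across the series, from 8.70 to 9.57 in YFP+ cells and from 8.24 to 9.19 in YFP- cells.

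The inhibitor Tnfaip3 read 8.61 and 7.62 on UTR, 7.87, 7.58 and 7.72 on CDE, 8.86, 8.59 and 8.30 on DDC, and 8.43, 11.15 and 9.80 on YFP-. DDC lay above CDE without overlap, and UTR replicate 1 lay within the DDC range and replicate 2 within that of CDE.

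By group mean, the order for Tnf was DDC, YFP-, CDE and UTR, in which DDC was clear of CDE and UTR and no other neighbours were apart. For Tnfrsf12a it was DDC, UTR, CDE and YFP-, with only YFP- clear of its neighbour. For Fas and Tnfrsf1a YFP- came first, clear of 3 YFP+ groups that did not differ beyond their spread. For Ltb, Ltbr, Tnfrsf1b and Tnfaip3 each group overlapped its neighbour in the order of means, with 1 exception: for Ltb the CDE and UTR means were neighbours, and DDC, which came first, was clear of CDE.

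Untreated YFP+ cells were compared with untreated YFP- cells to show which parts of the TNF system go with the biliary label. The TWEAK receptor gene Tnfrsf12a was higher in YFP+ cells by 2.85 ± 0.47 (SE; 7.20-fold; adjusted p = 0.00303, limma on 11 arrays). Fas was lower by 2.59 (-2.59 ± 0.49; 6.03-fold; adjusted p = 0.0056) and Tnfrsf1a was lower by 1.24 (-1.24 ± 0.23; 2.36-fold; adjusted p = 0.00587). Of the 9 genes 1 was thus higher and 2 were lower, all receptors, against a background of 18.9% of all genes past the threshold, 10.4% higher and 8.46% lower. For these 3 receptors the arrays of the groups did not overlap, which held for 43% of all genes (22.5% higher and 20.5% lower). Together with Tnfaip3, 4 of the 9 were at an unadjusted p under 0.05, against 31.5% of all genes.

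Tnfrsf12a had 2 of its 3 YFP- values under the background mark, where a reading is only an upper bound. On YFP- replicate 1 both Tnfrsf12a and the bile duct list stood higher than on the other YFP- arrays. Without that array both remaining YFP- values were under the mark and the difference was 3.44. Fas and Tnfrsf1a were both highest on YFP- replicate 1, the array with the highest endothelial and stellate cell list means. The part of these cell types in the YFP- values was not tested further. In a fit of the 5 arrays of these groups alone, the 3 calls were lost at unchanged differences (adjusted p = 0.0914 for Tnfrsf12a, 0.0978 for Tnfrsf1a and 0.0913 for Fas). The call of Tnfrsf1a was also lost without UTR replicate 2 (adjusted p = 0.0599).

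**Figure D2:**
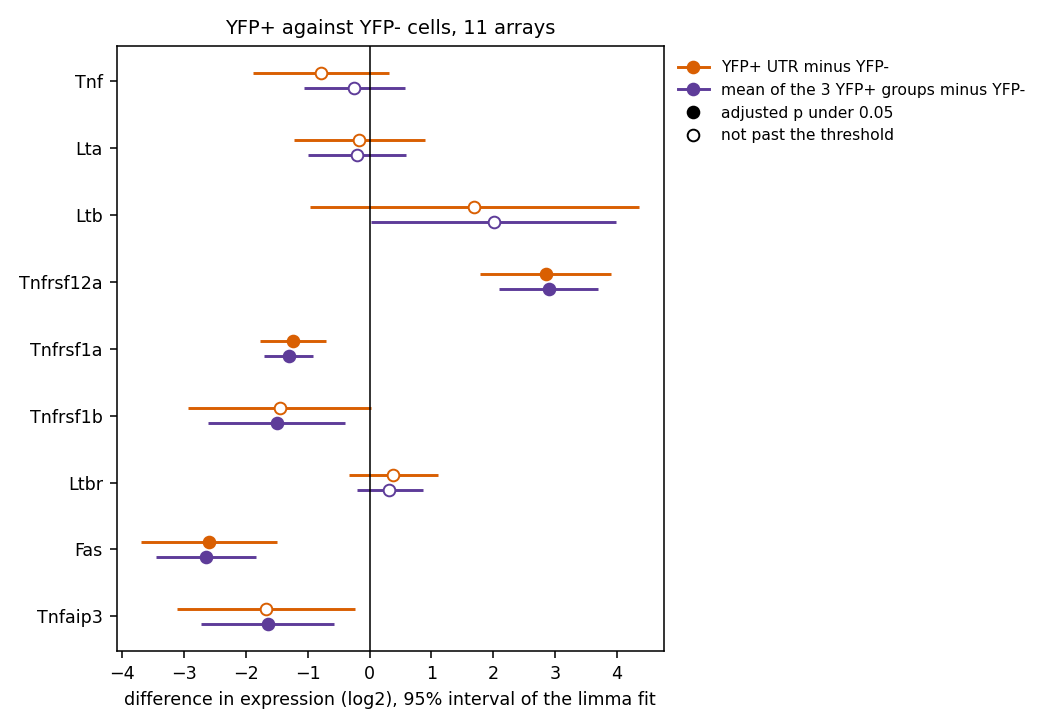
Differences in log2 expression (horizontal axis) with 95% intervals for the 9 genes (vertical axis), untreated YFP+ minus YFP- and the mean of the 3 YFP+ groups minus YFP-, from limma on 11 arrays. Filled points passed the adjusted threshold of 0.05: Tnfrsf12a is to the right of 0, and Tnfrsf1a and Fas are to the left in both comparisons.

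The remaining 6 genes did not pass. Ltb differed by 1.69 ± 1.18 (adjusted p = 0.368), with an interval from -0.96 to 4.35. YFP- replicate 2 (10.95), richest in lymphocyte, neutrophil and monocyte markers, lay above every YFP+ array and the other YFP- arrays below all of them. Without replicate 2 the difference was 3.07 ± 0.67 and passed (adjusted p = 0.0128). Tnf differed by -0.79 ± 0.48 (adjusted p = 0.31), Tnfrsf1b by -1.45 ± 0.66 (0.166) and Tnfaip3 by -1.68 ± 0.64 (0.105). These 3 passed without YFP- replicate 1, at -1.33, -2.24 and -2.36 (adjusted p = 0.0124, 0.00139 and 0.00486). Among the YFP- arrays that array was poorest in Ptprc, held bile duct transcripts and had the highest endothelial and stellate cell list means. The part of each in these values was not tested. Ltbr differed by 0.38 ± 0.32, with an interval from -0.33 to 1.10.

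**Figure D3:**
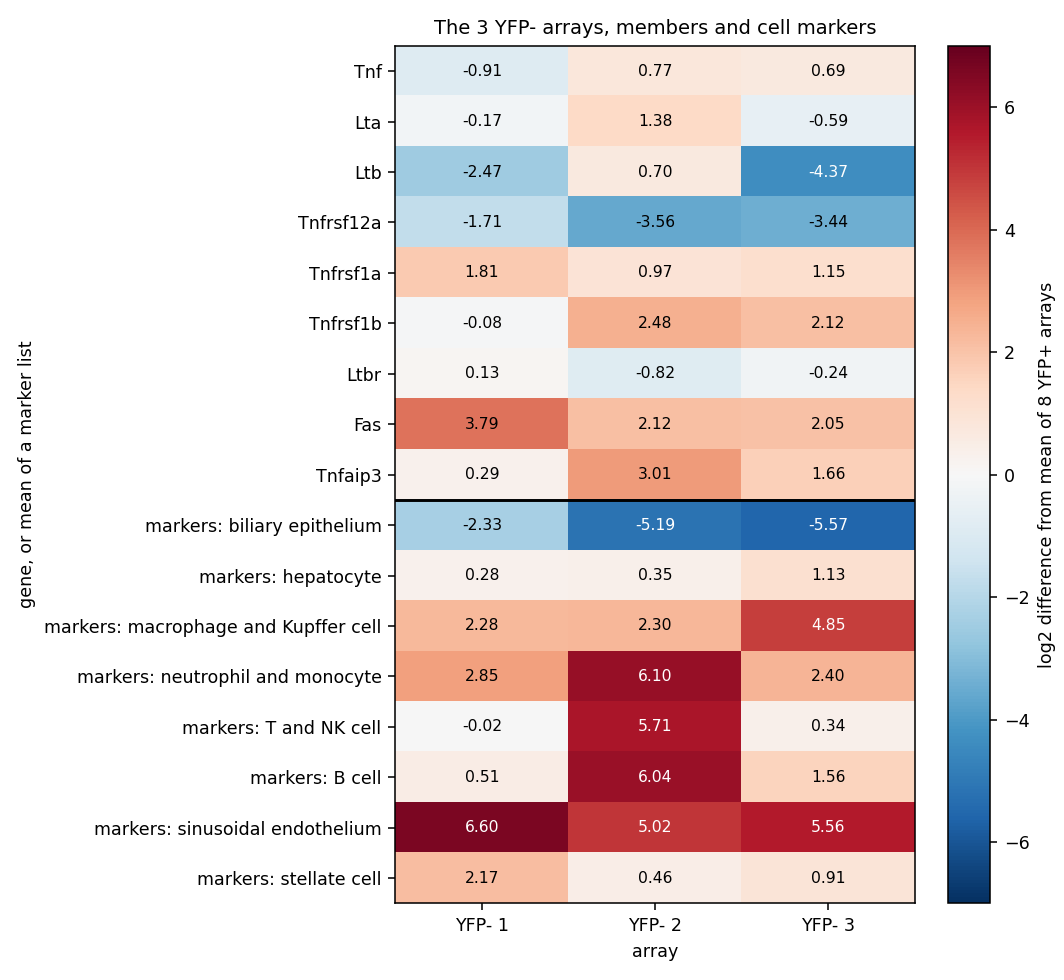
Each YFP- array (columns) minus the mean of the 8 YFP+ arrays, in log2 units, for the 9 genes and for the means of 8 marker lists (rows). Replicate 2 is high for T and NK, B cell and neutrophil markers (5.71, 6.04 and 6.10) and for Ltb and Tnfaip3 (0.70 and 3.01), and replicate 1 has the smallest deficit of biliary markers (-2.33) and of Tnfrsf12a (-1.71).

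Setting the mean of all 3 YFP+ groups against YFP- adds the injured cells, but mixes the label with the diets since no YFP- cells came from injured livers. Tnfrsf12a was higher by 2.90 ± 0.35 (adjusted p = 0.000297), Tnfrsf1a was at -1.30 ± 0.18 (0.000518) and Fas at -2.64 ± 0.36 (0.000581). Tnfrsf1b (-1.50 ± 0.49; 0.0441) and Tnfaip3 (-1.65 ± 0.48; 0.0276) also passed, lower in YFP+ cells. That is 1 gene higher and 4 lower of 9, against 30.5% of all genes past the threshold (16.3% higher and 14.3% lower). For both added calls the arrays overlapped between the groups, while 3 of the 9 genes were free of overlap, against 25.7% of all genes (13.9% higher and 11.7% lower). With Ltb (2.01 ± 0.88, adjusted p = 0.116), 6 of the 9 were at an unadjusted p under 0.05, against 41.2% of all genes. The calls of Tnfrsf1b and Tnfaip3 were lost when YFP- arrays were allowed a spread of their own (adjusted p = 0.0896 and 0.0542) and without YFP- replicate 2, where Tnfrsf1b was at -1.02 and Tnfaip3 at -0.97 (0.162 and 0.0739). For Tnfrsf1b 9 of the 11 single arrays ended the call when left out, and for Tnfaip3 5 of them did.

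Around these genes, 91 measured genes of the wider pathway had 5 higher and 13 lower in untreated YFP+ than in YFP- cells, with a median difference of -0.43 against -0.01 over all genes. The number that passed, 18 of 91, is near the share of all genes (18.9%, with 10.4% higher and 8.46% lower), and the counts of the lists below are to be read against the same shares. Among the other receptors of the superfamily, Tnfrsf19, also called TROY, was higher by 3.37 ± 0.36 (adjusted p = 0.000366). It read 8.85 and 9.09 on UTR and 6.39, 4.85 and 5.55 on YFP-. The receptor Tnfrsf22 (-1.83 ± 0.41) and the costimulatory receptor Cd40 (-1.77 ± 0.48) were lower. Tnfrsf26 was lower as well (adjusted p = 4.34e-05), at 7.11 to 8.01 on YFP-. It was under the background mark on every YFP+ array (3.92 and 4.04 on UTR), so its difference is only bounded and no size is given. In this list of 23 receptors 2 passed as higher and 3 as lower. Of 14 other ligands 2 passed, both lower: Tnfsf10, which encodes the death ligand TRAIL (-1.93 ± 0.26), and Tnfsf13b, which encodes the B cell survival factor BAFF (-1.23 ± 0.18).

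The machinery below the receptors differed in a few members. Adam17, the protease that sheds TNF, was lower (-1.43 ± 0.26), and Rhbdf1, an inactive rhomboid that helps bring this protease to the surface, was higher (1.70 ± 0.36). In the death signalling list 3 of 6 were lower and 0 higher: the necroptosis kinase Ripk3 (-2.51 ± 0.46), its substrate Mlkl (-1.66 ± 0.49) and the initiator caspase Casp8 (-1.07 ± 0.27). The leukocyte-rich NF-kB subunit Rel was lower by 3.10 (-3.10 ± 0.40), alone among 4 measured subunits. Of 12 NF-kB target genes the chemokines Cxcl2 (-4.47 ± 0.55) and Cxcl10 (-3.11 ± 0.50) were lower and Ccl20 (1.88 ± 0.57) was higher. The 5-array fit kept the calls of Tnfsf13b, Tnfrsf26, Tnfrsf19 and Cxcl2 and lost those of the other genes named in these 2 paragraphs. With 1 array left out at a time, the call of Mlkl was kept in 2 of 11 fits, those of Casp8 and Cd40 in 8 each, that of Tnfrsf22 in 9 and those of Rhbdf1 and Ripk3 in 10 each. Mlkl also lost it with array weights, Casp8 with quantile normalization, and both with the replicate number as a block. The call of Ccl20 was kept in 2 of 11 such fits. It was also lost with array weights, quantile normalization and the replicate number as a block. For Ccl20 the arrays of the groups overlapped (6.46 on UTR replicate 2 and 6.49 on YFP- replicate 1). Without UTR replicate 1 or 2 the Ccl20 difference ranged from 0.86 to 2.91.

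The CDE and DDC diets were compared with no treatment, and with each other, to show whether injury changes these genes within the biliary lineage. The fit used the 8 YFP+ arrays. Against untreated cells none of the 9 genes passed for either diet. For CDE 0% of all genes passed with limma (0 genes, with 1492 or 6.44% at an unadjusted p under 0.05), and for DDC 0.16% did (37 genes, 0.0949% higher and 0.0647% lower). The comparisons of each diet with UTR share the 2 UTR arrays.

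**Figure D4:**
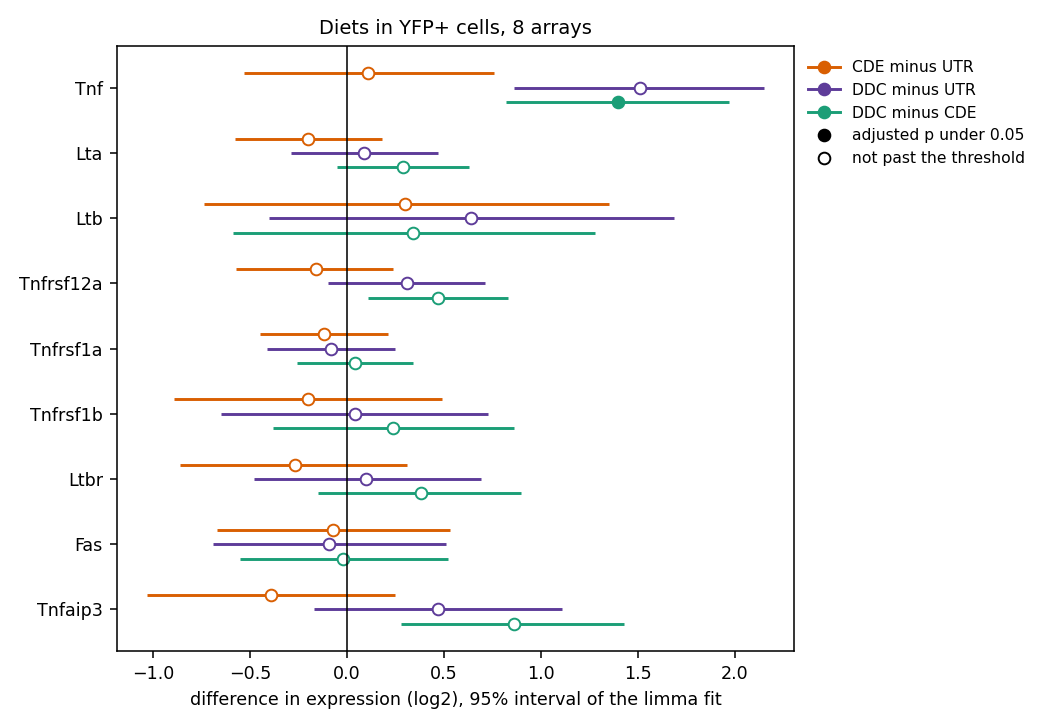
Differences in log2 expression (horizontal axis) with 95% intervals for the 9 genes (vertical axis) between YFP+ groups, from limma on the 8 YFP+ arrays; filled points passed the adjusted threshold of 0.05. The Tnf intervals for DDC minus UTR (0.86 to 2.15) and DDC minus CDE (0.82 to 1.97) lie right of 0, while those for CDE minus UTR include 0 for all 9 genes.

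On CDE the 9 genes stayed near the untreated level. Tnf differed by 0.11 ± 0.28 (interval -0.53 to 0.76), Tnfrsf12a by -0.16 ± 0.18 (-0.57 to 0.24) and Tnfaip3 by -0.39 ± 0.28 (-1.03 to 0.25). For Ltb the interval was wider (0.30 ± 0.46, -0.74 to 1.35), since the UTR arrays lay 1.98 apart. The CDE and UTR arrays overlapped for all 9 genes, whereas 22% of all genes did not overlap (11.5% higher and 10.5% lower). These intervals leave room for changes of up to about the sizes given and do not show that CDE cells and untreated cells are alike.

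On DDC, Tnf was 1.51 ± 0.28 above untreated, the DDC mean being 9.72 ± 0.24 (SD, n = 3) and the untreated mean 8.21 ± 0.51 (SD, n = 2), and did not pass after adjustment (adjusted p = 0.104, limma, unadjusted p = 0.00063). It was the only member of the 9 whose DDC and UTR arrays did not overlap, against 24.5% of all genes (12.7% higher and 11.8% lower), and the only one at an unadjusted p under 0.05, against 10.4% of all genes. Tnfrsf12a differed by 0.31 ± 0.18, Tnfaip3 by 0.47 ± 0.28 and Ltb by 0.64 ± 0.46. The receptors Tnfrsf1a (-0.08 ± 0.14), Tnfrsf1b (0.04 ± 0.30), Ltbr (0.10 ± 0.25) and Fas (-0.09 ± 0.26) lay near 0.

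UTR replicate 1 and replicate 2 differed more for these genes than for most. The difference between them had a median size of 0.72 over the 9 genes against 0.15 over all genes, and 8 of the 9 were higher on replicate 1 (47.4% of all genes were). Ltb had the gap of 1.98, rank 41 of 23185 by size, and the NF-kB targets Ccl2 (11.56 and 8.82) and Ccl20 (8.51 and 6.46) ranked 17 and 36. Tnfrsf1b ran the other way (6.95 and 8.05). Without UTR replicate 1 Ltb passed for both diets, at 1.29 for CDE (adjusted p = 0.0144) and 1.63 for DDC (0.00523), and without UTR replicate 2 its difference was -0.69 and -0.35. Each of these fits has 1 untreated array, which is assumed to vary like the CDE and DDC arrays (SD of Ltb 0.02 and 0.06). What sets these 2 arrays apart was not tested.

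The direct comparison of the diets rests on 3 arrays against 3. Tnf was higher on DDC than on CDE by 1.40 ± 0.25 (2.63-fold; interval 0.82 to 1.97; adjusted p = 0.046). The CDE mean was 8.33 ± 0.41 (SD, n = 3), and the DDC mean is given above. It was the 1 member of 9 that passed, a ligand, against 1.16% of all genes, 0.418% higher and 0.742% lower (97 and 172 genes, or 130 and 141 after a further quantile normalization). The call is close to the threshold. It was lost with all 11 arrays in the fit (adjusted p = 0.405) and without any 1 of the 6 CDE and DDC arrays (0.0857 to 0.139), at differences of 1.17 to 1.57.

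Tnfaip3 was 0.86 ± 0.25 higher on DDC than on CDE (interval 0.28 to 1.43) and Tnfrsf12a 0.47 ± 0.16 (0.11 to 0.83), and neither passed (adjusted p = 0.159 and 0.208). Ltb (0.34 ± 0.41) and Ltbr (0.38 ± 0.23) did not pass either. In Tnf, Ltb, Tnfrsf12a, Ltbr and Tnfaip3, 5 of the 9 genes, all DDC arrays were above all CDE arrays, and in 0 were they below, against 20.3% of all genes without overlap (9.64% higher and 10.6% lower). Tnf, Tnfrsf12a and Tnfaip3, 3 of the 9, were at an unadjusted p under 0.05, against 15.3% of all genes. Fas (-0.02 ± 0.23), Tnfrsf1a (0.04 ± 0.13) and Tnfrsf1b (0.24 ± 0.27) overlapped. The interval for Fas ran from -0.55 to 0.52.

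Of the 12 NF-kB target genes, 4 rose from CDE to DDC and 0 fell, where 0.418% of all genes rose and 0.742% fell. The 4 were the neutrophil chemokines Cxcl2 (3.16 ± 0.32, adjusted p = 0.0107) and Cxcl1 (1.34 ± 0.18, 0.0224), the adhesion molecule Icam1 (0.92 ± 0.16, 0.0404) and the survival gene Ier3 (0.83 ± 0.13, 0.0358). The median difference of this list was 0.86, against 0.01 over all genes, and 8 of its 12 members were higher on DDC without overlap, as were 9.64% of all genes. The list was chosen with earlier results of these data known. Its counts beside the shares of all genes are therefore a description and not independent support. Ccl2 read 12.05, 11.95 and 12.10 on DDC against 10.70, 10.01 and 10.78 on CDE, and Il6 stayed under the background mark on all 8 YFP+ arrays (3.45 to 3.71). Against untreated cells Cxcl2 (3.73 ± 0.36) and Cxcl1 (1.62 ± 0.20) rose on DDC, the 2 members of the list that passed, and 0 passed for CDE. With all 11 arrays in the fit both calls were lost, and of the 8 single arrays 3 could be left out without loss of the Cxcl2 call and 1 without loss of the Cxcl1 call. Among 11 inhibitors and feedback genes Zc3h12a, which encodes an RNase that degrades cytokine mRNA, rose from CDE to DDC by 0.68 ± 0.11 (0.0358). Each of these 5 calls between the diets was lost with all 11 arrays and without some single arrays, Zc3h12a and Icam1 without any 1 of the 8.

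**Figure D5:**
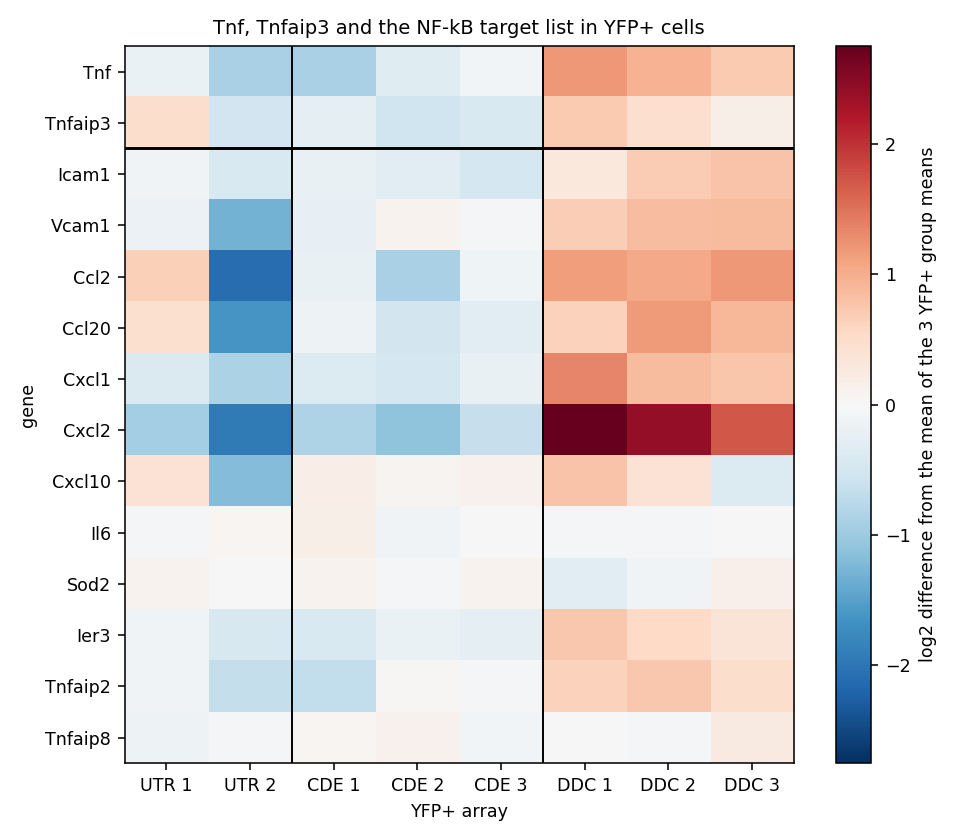
Log2 difference of each YFP+ array (columns) from the mean of the 3 YFP+ group means, for Tnf, Tnfaip3 and the 12 NF-kB target genes (rows). The DDC columns are high for Cxcl2, Cxcl1, Ccl2 and Tnf, the UTR 2 column is low for Ccl2 and Ccl20, and Il6, Sod2 and Tnfaip8 are even.

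The other receptors and the signalling genes did not pass between the diets. Tnfrsf19 was lower on DDC (7.84, 8.25 and 8.35) than on CDE (8.77, 8.82 and 8.87), without overlap (-0.68 ± 0.14, adjusted p = 0.0711), and Tnfrsf23 differed by 0.78 ± 0.21 (0.135). Of the 23 other receptors, 14 other ligands, 17 adaptors and kinases, 6 death signalling genes, 4 NF-kB subunits and 4 shedding genes, 0 passed with limma for either diet or between them. Relb (0.53 ± 0.19) and Rela (0.36 ± 0.12) were the subunits with the largest differences, both higher on DDC without overlap. Tnfsf10 was 0.47 ± 0.13 above untreated on CDE and 0.37 ± 0.13 on DDC, and neither passed (adjusted p = 0.655 and 0.36).

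Markers of other cell types are given here beside the Tnf values. The macrophage and Kupffer cell list had array means of 6.17 to 6.40 on DDC, 6.33 to 7.39 on CDE and 6.61 to 6.71 on UTR. All 6 of its members had a difference below 0 between DDC and CDE, and 5 did between DDC and UTR, where Cd68 was at 0.49 ± 0.34. In YFP- cells, where Tnf read 7.91, 9.59 and 9.51, the list means were 8.84, 8.86 and 11.41. The neutrophil and monocyte list read 5.38, 4.94 and 4.26 on DDC, 4.25, 5.71 and 4.88 on CDE and 4.48 and 4.68 on UTR, so DDC overlapped both. Its marker S100a8 read 7.40, 5.64 and 4.21 on DDC, 4.43, 7.63 and 5.98 on CDE and 4.77 and 5.00 on UTR (DDC minus UTR 0.86 ± 1.03). Of these 5 neutrophil and monocyte markers 3 were under the background mark on all DDC arrays. Of the 6 macrophage and Kupffer cell markers 2 were. The others, Csf1r (7.80 to 8.50), Cd68 (7.39 to 8.21), C1qa (5.96 to 6.84) and Clec4f (5.57 to 5.88), were above it on all 3 DDC arrays. Ptprc lay between 4.51 and 5.51 on all 8 YFP+ arrays, above the mark on 1 CDE and 1 DDC array. Of the 4 biliary markers 0 passed between the diets with limma. Krt19, Epcam and Sox9 overlapped, while Krt7 read 9.45, 9.86 and 9.86 on DDC and 9.19, 8.94 and 9.21 on CDE, higher without overlap (0.61 ± 0.15, adjusted p = 0.111). Among the markers of all 8 cell types the hepatocyte gene Alb alone passed, lower on DDC (11.85, 11.70 and 11.86) than on CDE (12.48, 12.58 and 12.54), by -0.73 ± 0.09 (adjusted p = 0.0162). Ttr (-0.40 ± 0.12) and Apoa1 (-0.87 ± 0.56), also of hepatocytes, and Dcn (-1.31 ± 0.40) and Reln (-1.85 ± 0.67), of stellate cells, were lower on DDC without overlap and did not pass. The other stellate markers Lrat (0.02 ± 0.10), Pdgfrb (0.01 ± 0.15) and Des (-0.05 ± 0.10) overlapped. Clec4f (-0.59 ± 0.19), of Kupffer cells, was also lower without overlap. Csf3r (0.21 ± 0.08), of neutrophils, and Stab2 (0.30 ± 0.13), of sinusoidal endothelium, were higher without overlap. None of these passed. Csf3r on CDE and DDC, Stab2 on CDE and Dcn on DDC were under the background mark. The part of these cell types in the Tnf difference was not tested.

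By profile over the 11 arrays, each gene taken relative to its own mean, the genes nearest to Tnfrsf12a were Ppl, which encodes periplakin of the cornified envelope and desmosomes, Cdcp1, an epithelial transmembrane protein, and Itgb4, the hemidesmosomal integrin beta subunit. Their root mean square differences from Tnfrsf12a were 0.18, 0.20 and 0.21 log2 units. All had the same step on YFP- replicate 1, where Ppl read 7.51 against 6.01 and 5.76 on the other YFP- arrays. Nearest to Tnf were the clock repressor gene Bhlhe41 (0.32), Gsap (0.41) and the hyaluronan receptor gene Cd44 (0.41). Bhlhe41 was under the background mark on both UTR arrays (4.94 and 4.56), CDE replicates 1 and 2 (4.81 and 4.84) and YFP- replicates 1 and 3 (4.83 and 5.36). Its likeness therefore rests in part on readings near the floor. Cd44 read 10.27, 10.28 and 10.27 on DDC, 9.37, 9.62 and 9.59 on CDE and 9.23 and 8.91 on UTR. These likenesses describe 11 arrays that share 4 groups and are not tests.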

How the data were processed

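The deposited table held 1 log2 value per feature for 25206 features on 11 arrays. The authors' background correction, normalization and probe summary are, in the sources used here, not given, and base 2 was inferred from the range (2.55 to 13.57). The platform annotation gave exactly 1 symbol for 23185 features, 0 had several and 2021 were not listed; 0 columns were left unused. No further normalization was applied. The fits used limma 3.58.1 under R 4.3.3, with a mean per group (lmFit) and moderated variances without trend (eBayes). Comparisons with YFP- used all 11 arrays in 4 groups, and comparisons among YFP+ groups used the 8 YFP+ arrays, since YFP- arrays varied more (median SD of a gene 0.26, against 0.11 to 0.15). Tests were two-sided, with Benjamini-Hochberg adjustment over all 23185 genes and a threshold of 0.05. Errors are SE of the fit or SD of a group, and the number of arrays limits the precision. A gene was taken as not above background in a group if every array was under the olfactory receptor mark. The named genes are the 9 members, up to 4 called genes of each pathway list (or the 2 largest differences), fixed markers and the nearest 3 profiles to Tnfrsf12a and Tnf; Ccl2, Il6, Sod2, Tnfaip8, and Tnfsf10 on DDC or CDE were named beyond that where a figure or a sentence turns on them. The 91 measured pathway genes and all members were chosen with earlier results of these data known. The fit was also run on simulated data in which all arrays of a gene had the same spread. It therefore does not bear on the larger spread of the YFP- arrays.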

Additional observations from a re-analysis of the deposited data

Results flagged for a closer look

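The effects of the DDC and CDE diets, each against the same untreated arrays, differed for Tnf by 1.40 when tested as DDC minus CDE, with all 3 DDC arrays above all 3 CDE arrays. By the same test the effects differed for Cxcl2 by 3.16, Cxcl1 by 1.34, Icam1 by 0.92, Ier3 by 0.83 and Zc3h12a by 0.68, each higher on 3 of 3 DDC arrays than on any CDE array (adjusted p = 0.0107 to 0.0404, limma; 0.046 for Tnf). Groups of 3 arrays or fewer were not searched for single outlying arrays.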

How the results depend on the processing

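Fitting 5 arrays alone gave 931 genes for UTR against YFP-, with Tnfrsf12a at 2.85, Tnfrsf1a at -1.24 and Fas at -2.59, all 3 past the threshold no longer. Array weights gave 4193 genes for all YFP+ against YFP-, with Tnfrsf1b at -1.50 and Tnfaip3 at -1.65 not passing, and quantile normalization gave Tnfrsf1b at -1.36. The 11-array fit gave 0 genes for DDC against UTR and 1 for DDC against CDE, with Tnf at 1.40 not passing. A mean-expression trend gave 1 gene for CDE. With the replicate number as a block, 0 genes passed for DDC against UTR and 61 for DDC against CDE, Tnf (1.40, adjusted p = 0.109) and Tnfaip3 (-1.67, 0.0538, all YFP+ against YFP-) were not past the threshold, Tnfrsf1b (-0.05) and Ltbr (-0.02) turned sign for DDC against UTR, and no other member's call changed. Equal replicate numbers share only a number: deviations of 15 such pairs correlated from -0.072 to 0.131, and those of 30 other pairs from -0.151 to 0.151.

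Leaving out 1 array at a time, counts ran from 2306 to 5817 (UTR against YFP-), 5887 to 7797 (all YFP+ against YFP-), 0 to 46 (CDE against UTR), 0 to 103 (DDC against UTR) and 16 to 211 (DDC against CDE). The lowest of these came without UTR replicate 2, UTR replicate 2, any CDE or DDC array, DDC replicate 2 and CDE replicate 3, and the highest without YFP- replicate 1 for both label comparisons, UTR replicate 1 for each diet, and either UTR array between the diets. Called members ranged from 2.52 to 3.44 (Tnfrsf12a), -1.41 to -0.99 (Tnfrsf1a) and -2.89 to -2.02 (Fas) for UTR against YFP-, from -2.29 to -1.02 (Tnfrsf1b) and -2.33 to -0.97 (Tnfaip3) for all YFP+ against YFP-, and from 1.17 to 1.57 for Tnf between the diets. Uncalled members that changed sign were, for UTR against YFP-, Lta (-0.56 to 0.42) and Ltbr (-0.04 to 0.81), and for all YFP+ against YFP-, Tnf (-0.79 to 0.05) and Lta (-0.60 to 0.38). For CDE against UTR they were Tnf (-0.25 to 0.47), Ltb (-0.69 to 1.29), Tnfrsf12a (-0.49 to 0.16), Tnfrsf1b (-0.75 to 0.35), Ltbr (-0.70 to 0.15), Fas (-0.19 to 0.09) and Tnfaip3 (-0.89 to 0.11). For DDC against UTR they were Ltb (-0.35 to 1.63), Tnfrsf12a (-0.02 to 0.63), Tnfrsf1a (-0.19 to 0.04), Tnfrsf1b (-0.51 to 0.59), Ltbr (-0.32 to 0.53), Fas (-0.35 to 0.10) and Tnfaip3 (-0.03 to 0.97), and between the diets Tnfrsf1a (-0.07 to 0.14) and Fas (-0.28 to 0.17). The Lta values compare readings mostly under the background mark. With the lower quartile as that mark, Lta counted as above it in every group. The cause of these changes was not tested.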
